A study of Mus musculus with 8 samples.

Results

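De novo fatty acid synthesis was followed here through 10 lipogenic genes, Srebf1, Acly, Me1, Acaca, Acacb, Mid1ip1, Thrsp, Fasn, Elovl6 and Scd1. They were taken by gene symbol from the annotation of the array, and all 10 were measured among 19934 genes. Transcripts were measured in liver with Affymetrix Mouse Gene 1.0 ST microarrays, whose short probes lie along the exons of a gene, with 1 array per sample. The 4 NS-DADm samples came from mice in which the nuclear receptor corepressors NCOR and SMRT were both mutated in the deacetylase-activating domain, the part that binds the histone deacetylase HDAC3 and turns on its enzyme activity. The 4 WT samples came from normal mice. All samples were male C57Bl/6 liver, from mice 10 to 12 weeks old fed normal chow, with 12 h light and 12 h dark, and were taken at ZT 10, late in the light phase. Whether the arrays of a group stand for separate animals is not stated in the labels, and the p-values cover only the spread among these arrays, which could be technical. The mutations are, as background, carried by the whole animal, so liver cells were not the only cells affected.

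Liver turns surplus carbohydrate into fat by exporting citrate from mitochondria, cutting it to acetyl-CoA, carboxylating that to malonyl-CoA and building palmitate from it. The pathway is controlled largely at the level of transcription, by SREBP-1c under insulin and the oxysterol receptor LXR, and by the glucose-responsive factor ChREBP. NCOR, SMRT and HDAC3 hold genes of hepatic lipid synthesis in check, and the question the comparison addresses is which liver transcripts differ when the corepressors cannot activate HDAC3.

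Values are log2 intensities as deposited, a fold change is the linear ratio that a log2 difference stands for, and a gene was called at an adjusted p under 0.05. The adjusted p is that of limma with Benjamini-Hochberg adjustment over all genes. Array medians lay between 7.39 and 7.5, hepatocyte markers such as Alb (13.92 to 13.99) and Apoa1 (13.83 to 13.91) were near the top of the scale in every array, and 54 of 19934 genes were called. That count changed with the array left out. Leaving out NS-DADm replicate 1, 2, 3 or 4 gave 41, 31, 35 or 126. Leaving out WT replicate 1, 2, 3 or 4 gave 36, 13, 22 or 54.

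To show sequence before annotated starts of genes that varied together, the 160 bases before a start site of each are given from RefSeq on GRCm38.p6. They are shown for the 5 genes that followed the others most closely over the arrays (Acly, Acaca, Mid1ip1, Fasn and Elovl6, with values below) and for Acacb and Thrsp, the paralogs of Acaca and Mid1ip1. Each is written 5′ to 3′ on the strand of the gene, with matches to a CCAAT box (CCAAT) or a GC box (GGGCGG), on either strand, in capitals.
Acly, chr11:100528001-100528160, minus strand: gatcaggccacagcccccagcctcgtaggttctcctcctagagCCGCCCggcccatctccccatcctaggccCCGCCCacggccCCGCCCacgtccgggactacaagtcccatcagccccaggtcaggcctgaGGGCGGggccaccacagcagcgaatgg
Acaca, chr11:84195278-84195437, plus strand: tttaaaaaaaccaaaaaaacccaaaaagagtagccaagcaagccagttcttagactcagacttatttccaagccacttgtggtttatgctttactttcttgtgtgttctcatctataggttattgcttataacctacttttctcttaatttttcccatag
Acacb, chr5:114165358-114165517, plus strand: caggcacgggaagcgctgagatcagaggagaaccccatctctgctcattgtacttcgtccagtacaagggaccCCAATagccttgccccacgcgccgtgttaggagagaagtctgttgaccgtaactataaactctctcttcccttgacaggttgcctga
Mid1ip1, chrX:10717205-10717364, plus strand: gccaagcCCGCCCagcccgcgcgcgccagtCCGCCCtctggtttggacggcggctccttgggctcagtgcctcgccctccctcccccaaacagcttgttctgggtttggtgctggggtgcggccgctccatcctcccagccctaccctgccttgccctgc
Thrsp, chr7:97417551-97417710, minus strand: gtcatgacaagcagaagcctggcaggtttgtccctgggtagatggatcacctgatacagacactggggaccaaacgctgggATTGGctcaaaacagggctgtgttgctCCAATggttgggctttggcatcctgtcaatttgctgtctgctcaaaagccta
Fasn, chr11:120824548-120824707, minus strand: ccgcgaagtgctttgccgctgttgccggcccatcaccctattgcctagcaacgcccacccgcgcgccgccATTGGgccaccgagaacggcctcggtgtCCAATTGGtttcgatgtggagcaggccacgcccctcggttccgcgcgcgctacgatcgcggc
Elovl6, chr3:129532226-129532385, plus strand: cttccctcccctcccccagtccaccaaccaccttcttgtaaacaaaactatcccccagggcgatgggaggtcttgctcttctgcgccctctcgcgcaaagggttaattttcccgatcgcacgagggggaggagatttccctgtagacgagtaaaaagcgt
The capitals show that Fasn, Thrsp and Acacb hold CCAAT boxes here, the site that the factor NF-Y binds, while Acly and Mid1ip1 hold GC boxes, the site that Sp1 binds. Acaca and Elovl6 hold neither in the 250 bases before these starts. In Fasn, matches on the opposite strands overlap in CCAATTGG. The table held 12 promoters for 9 of the 10 genes, Scd1 having none, and over the 250 bases before the start CCAAT was found in 6 of the 12, against 33.8% of all 32851 promoters. GGGCGG was found in 5 of the 12, against 32.7% of all. Neither the core of the sterol regulatory element (TCACNCCAC, in 1.05% of all promoters) nor the E-box (CACGTG, in 6.02%) was matched on either strand in any of the 12, which says only that these letters are not in these windows. The start sites of Acaca, Acacb and Fasn used here lie inside the annotated genes, so other starts exist. The Acaca gene begins at 84129635 and the Acacb gene at 114146321, far before these windows. Matches in the windows, or their absence, thus say nothing of the other starts.

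Of the 10 genes, 9 were above 0 in log2 fold change. Their median was 0.36 against -0.01 over all genes, and 44.3% of all genes lay above 0. None was called by limma, against 0.271% of all genes called in either direction, 0.161% higher and 0.11% lower. At an unadjusted p under 0.05 there were 4, all higher in NS-DADm livers, against 3.72% of all genes higher and 9.33% in either direction at that level. The 4 were Acacb, Acly, Mid1ip1 and Elovl6. Within NS-DADm the arrays were split. Replicate 1 lay above every WT array for 9 of the 10 genes and replicate 2 for 8, whereas replicate 3 did so for 2 and replicate 4 for 3.

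**Figure D1:**
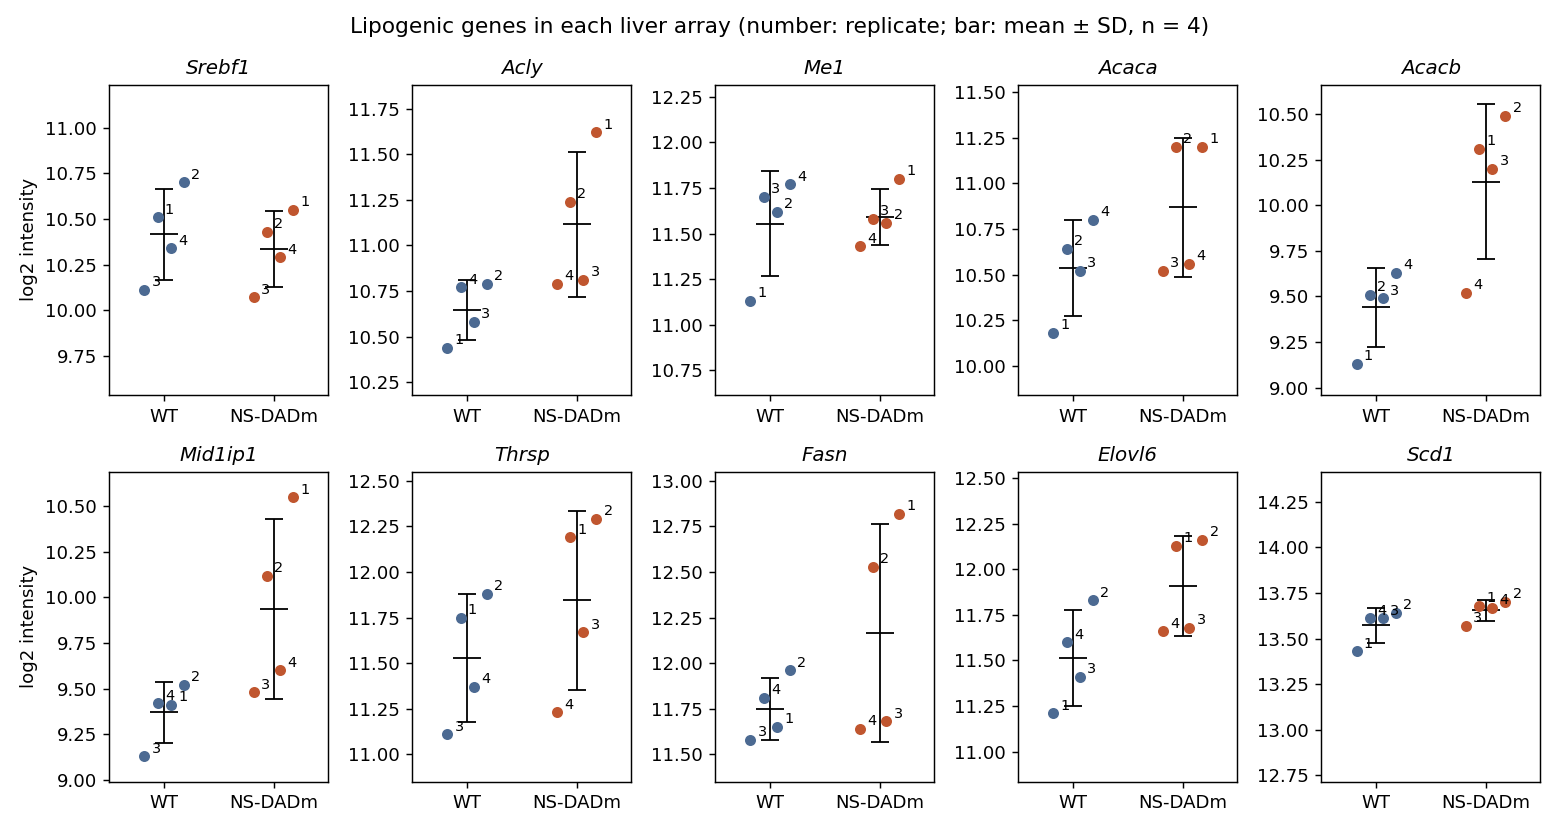
Log2 intensity of the 10 lipogenic genes in each array (vertical axes, each spanning the same number of log2 units), WT in blue and NS-DADm in orange, numbered by replicate, with a black bar for the mean ± SD over 4 arrays. For Fasn, NS-DADm replicates 1 and 2 sit at 12.82 and 12.53, above all WT arrays, and replicates 3 and 4 at 11.68 and 11.64, within the WT range of 11.58 to 11.96.

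Srebf1 (Entrez Gene 20787) encodes SREBP-1, the factor that drives the other genes of the pathway. Its values were 10.51, 10.70, 10.11 and 10.34 in WT replicates 1 to 4, and 10.55, 10.43, 10.07 and 10.29 in NS-DADm replicates 1 to 4. The groups overlapped almost fully, and the highest single value was that of WT replicate 2. The means were 10.42 ± 0.25 in WT and 10.34 ± 0.21 in NS-DADm (SD, n = 4 each). The log2 fold change was -0.08 with a 95% confidence interval of -0.37 to 0.21 (limma adjusted p = 0.951). Srebf1 was the only one of the 10 with a value below 0, and its value was 0.01 without NS-DADm replicate 3 or without WT replicate 2, -0.15 without NS-DADm replicate 1 and -0.18 without WT replicate 3. The probe set does not tell the SREBP-1a and SREBP-1c transcripts apart, and the processing of the protein was not measured.

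Acly (Entrez Gene 104112) encodes ATP citrate lyase, which makes cytosolic acetyl-CoA. It was at 10.44, 10.79, 10.58 and 10.77 in WT replicates 1 to 4 and at 11.62, 11.24, 10.81 and 10.79 in NS-DADm replicates 1 to 4. NS-DADm replicates 1 and 2 stood well above WT, and replicates 3 and 4 at its upper edge. It was the 1 gene of the 10 whose groups did not overlap, against 5.63% of all genes in either direction and 1.8% higher, and the margin between the lowest NS-DADm and the highest WT array was 0.0032. The log2 fold change was 0.47 (SE 0.17, 1.39-fold, 95% confidence interval 1.07 to 1.8, adjusted p = 0.386), and 0.31 without NS-DADm replicate 1.

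Me1 (Entrez Gene 17436) encodes the cytosolic malic enzyme, which supplies NADPH for the chain-building steps. Its WT values were 11.13, 11.62, 11.70 and 11.77, and its NS-DADm values 11.80, 11.56, 11.58 and 11.43, so that only NS-DADm replicate 1 exceeded the WT range. The difference was 0.03 on the log2 scale (95% confidence interval -0.26 to 0.32, adjusted p = 0.988), and a further probe set gave 0.03 as well. Its value was -0.04 without NS-DADm replicate 1 and -0.11 without WT replicate 1, the lowest WT array.

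The acetyl-CoA carboxylases make malonyl-CoA. Acaca (Entrez Gene 107476) encodes the cytosolic enzyme that feeds fatty acid synthesis, and Acacb (Entrez Gene 100705) the enzyme at the mitochondrial surface whose product restrains fatty acid oxidation. Acacb was at 9.13, 9.51, 9.49 and 9.63 in WT replicates 1 to 4 and at 10.31, 10.49, 10.20 and 9.52 in NS-DADm replicates 1 to 4. NS-DADm replicates 1, 2 and 3 lay above every WT array, and replicate 4 lay among them. It had the largest value of the 10, a log2 fold change of 0.69 (SE 0.18, 1.61-fold, 95% confidence interval 1.22 to 2.14, adjusted p = 0.217). Without NS-DADm replicate 4 it was called, at 0.89 with an adjusted p of 0.00913. The adjusted p ranged up to 0.474 over the other alternatives.

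Acaca was at 10.18, 10.64, 10.52 and 10.80 in WT and at 11.20, 11.20, 10.52 and 10.56 in NS-DADm replicates 1 to 4. NS-DADm replicates 1 and 2 were above the WT range and replicates 3 and 4 inside it. The log2 fold change was 0.33 (95% confidence interval -0.07 to 0.73, adjusted p = 0.63), and 0.22 when NS-DADm replicate 1, NS-DADm replicate 2 or WT replicate 1 was left out. Its other probe set, lower in mean level (10.24 against 10.70), gave 0.54 (adjusted p = 0.495 with every probe set tested separately) with NS-DADm values of 10.98, 10.73, 10.23 and 10.12 and a WT range of 9.41 to 10.44. To compare the carboxylases within an array, the Acaca value was subtracted from that of Acacb. This difference was -1.05, -1.13, -1.03 and -1.17 in WT, and -0.89, -0.72, -0.32 and -1.03 in NS-DADm replicates 1 to 4. In NS-DADm replicates 1, 2 and 3 Acacb thus stood higher relative to Acaca than in any WT array, and in replicate 4 the difference was that of the upper WT arrays. The groups differed by 0.36 (exact two-sided permutation p = 0.0571, and 0.114 adjusted over the 2 pairs compared, where the smallest p that 70 assignments allow is 0.0286), and by 0.22 without NS-DADm replicate 3.

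Mid1ip1 (Entrez Gene 68041) and Thrsp (Entrez Gene 21835, also called Spot 14) encode related small proteins. The Mid1ip1 protein promotes assembly of acetyl-CoA carboxylase into active filaments, and Thrsp is a classic thyroid hormone and carbohydrate response gene of liver. Mid1ip1 was at 9.41, 9.52, 9.13 and 9.42 in WT and at 10.55, 10.12, 9.48 and 9.60 in NS-DADm replicates 1 to 4. Replicate 1 lay 1.18 above the WT mean, and replicate 3 lay just under the highest WT array. The log2 fold change was 0.57 (SE 0.20, 1.48-fold, 95% confidence interval 1.09 to 2.02, adjusted p = 0.389), and 0.36 without NS-DADm replicate 1. A further Mid1ip1 probe set did not share this pattern. It was at a mean level of 8.09 against 9.66, with WT values of 7.91 to 8.32 and NS-DADm values of 7.97 to 8.12, and gave -0.09 (adjusted p = 0.892), so that the mean of both probe sets gave 0.24.

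Thrsp was at 11.75, 11.88, 11.11 and 11.37 in WT and at 12.19, 12.29, 11.67 and 11.23 in NS-DADm replicates 1 to 4. It varied widely in both groups, with a range of 0.77 over WT and 1.06 over NS-DADm arrays. The log2 fold change was 0.32 (95% confidence interval -0.19 to 0.83, adjusted p = 0.783). It was 0.20, 0.17 and 0.52 without NS-DADm replicates 1, 2 and 4, 0.18 without WT replicate 3 and 0.48 with array weights. Mid1ip1 minus Thrsp differed between the groups by 0.25 (exact two-sided permutation p = 0.286), or by -0.08 when the mean of the Mid1ip1 probe sets was used.

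Fasn (Entrez Gene 14104) encodes fatty acid synthase, which builds palmitate from malonyl-CoA. Its WT values were 11.65, 11.96, 11.58 and 11.81, and its NS-DADm values 12.82, 12.53, 11.68 and 11.64. NS-DADm replicates 1 and 2 were 1.06 and 0.78 above the WT mean, and replicates 3 and 4 slightly below it. The SD was 0.60 in NS-DADm and 0.17 in WT, the mean difference was 0.41 (95% confidence interval -0.11 to 0.94, adjusted p = 0.666), and it was 0.20 without NS-DADm replicate 1. The within-group SD of Fasn, 0.44, was above that of 99.5% of all genes.

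Elovl6 (Entrez Gene 170439) encodes the elongase that lengthens palmitate to stearate. It was at 11.21, 11.83, 11.41 and 11.60 in WT and at 12.13, 12.16, 11.68 and 11.66 in NS-DADm replicates 1 to 4. All NS-DADm arrays lay above the WT mean, and replicates 1 and 2 above all WT arrays. The log2 fold change was 0.39 (SE 0.15, 1.31-fold, 95% confidence interval 1.04 to 1.65, adjusted p = 0.438).

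Scd1 (Entrez Gene 20249) encodes stearoyl-CoA desaturase, which makes oleate. It varied least, with 13.43, 13.64, 13.61 and 13.61 in WT and 13.68, 13.70, 13.57 and 13.67 in NS-DADm replicates 1 to 4. These values lie close to the highest value of any probe set, 14.37. The difference was 0.08 (95% confidence interval -0.05 to 0.22, adjusted p = 0.793), and 0.04 without WT replicate 1.

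**Figure D2:**
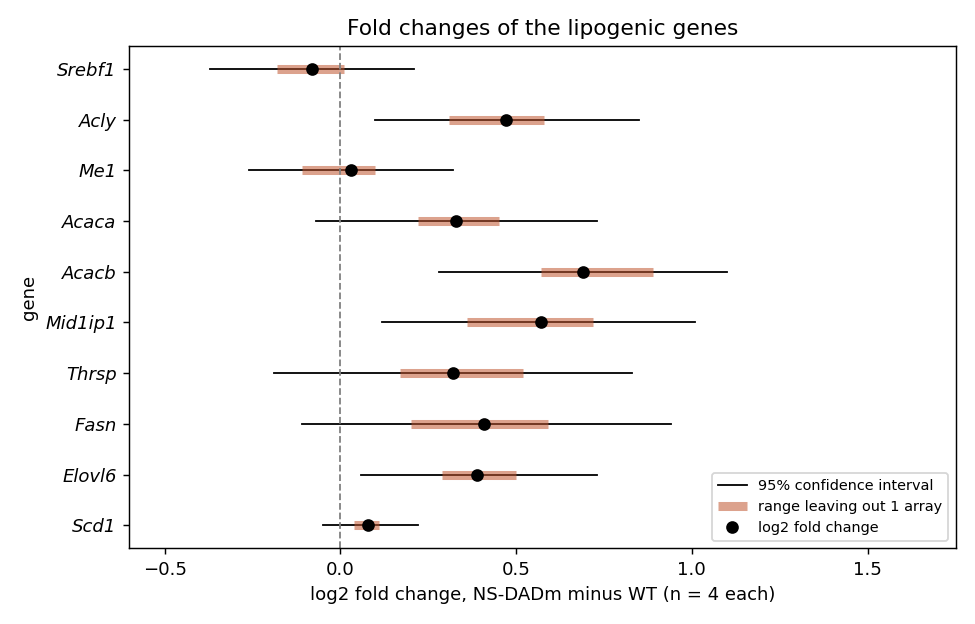
Log2 fold change of NS-DADm against WT (horizontal axis, n = 4 arrays each) for the 10 genes in pathway order, as a black point with its 95% confidence interval, and in orange the range of values when 1 array is left out. The intervals of Acly, Acacb, Mid1ip1 and Elovl6 lie above 0 before adjustment, and the orange ranges of Srebf1 and Me1 cross 0.

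The genes differed more between arrays of the same group than most genes did. The within-group SD was above the 95th percentile of all genes (0.22) in 9 of the 10, the exception being Scd1 at 0.08, near the median gene (0.1). In 7 of the 10 the SD was larger in NS-DADm than in WT, which held for 36.6% of all genes; the difference in spread was not tested. In 9 of the 10 the highest NS-DADm arrays were replicates 1 and 2, an order that 27.6% of all genes shared. Me1 was the exception, with replicate 3 (11.58) just above replicate 2 (11.56). WT arrays also moved together, WT replicate 2 being highest of the WT arrays for 7 of the 10 and WT replicate 1 lowest for 6. The 10 genes share each array, so they are not separate observations of it.

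**Figure D3:**
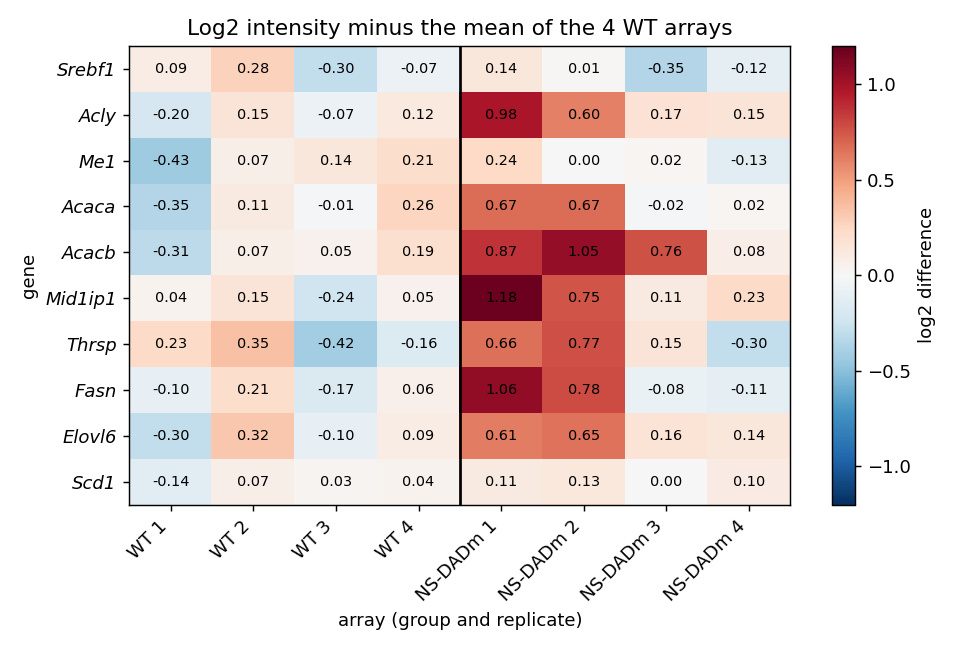
Log2 intensity minus the mean of the 4 WT arrays (colour and printed value) for each gene (rows) in each array (columns), with a line between WT and NS-DADm. Columns NS-DADm 1 and 2 are red for most genes, up to 1.18 for Mid1ip1, and columns NS-DADm 3 and 4 lie between -0.35 and 0.23 except for Acacb in replicate 3 (0.76).

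As deviations from the group means over the 8 arrays, each gene was set against the mean of the other 9, as a description. Fasn (Pearson r = 0.97), Acly (0.95), Elovl6 (0.91), Acaca (0.89) and Mid1ip1 (0.87) followed the others most closely. Thrsp (0.70), Acacb (0.69), Srebf1 (0.61), Scd1 (0.55) and Me1 (0.47) did so less. Among 976 other genes at or above the median level and with a within-group SD of at least 0.2, the 10 most like the mean of the lipogenic genes were Nop58, Dnajb1, Slc16a6, Tsr1, Spata5, Tcim, St3gal1, Spty2d1, Ikbke and Gtpbp4. Their Pearson r ran from 0.98 (Nop58) to 0.95 (Gtpbp4) over 8 arrays, Spearman rho from 0.86 (Spata5) to 1.0 (Slc16a6), and r from 0.89 to 0.97 without the 2 arrays farthest from the median, NS-DADm replicates 1 and 4. The genes most opposed were Fbxo21 (r = -0.93), Csad (-0.91) and the glycogen-targeting subunit gene Ppp1r3c (-0.91), at -0.85, -0.86 and -0.79 without those arrays. None of the 13 was called between the groups. With 976 candidates and 8 arrays, values this high are picked from the extremes.

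The rest of the pathway showed no gene past the test. The counts below at an unadjusted limma p under 0.05 stand beside 3.72% of all genes higher and 9.33% in either direction. Of 15 measured genes that control SREBP and ChREBP, 7 were above 0 and 8 below, with a median of -0.03. None was called by limma, and 1 was lower at an unadjusted p under 0.05. The largest values were those of Insig2, which holds SREBP in the endoplasmic reticulum, at 0.28 (adjusted p = 0.59, and 0.17 without NS-DADm replicate 1 or without WT replicate 1, in which Insig2 was lowest), and the E-box factor gene Usf2 at -0.14 (adjusted p = 0.539). Groups did not overlap in 2 of the 15, against 5.63% of all genes in either direction. The ChREBP gene Mlxipl, 1 of the 2, was at -0.12 (adjusted p = 0.535), with all NS-DADm arrays (11.67 to 11.84) just below all WT arrays (11.85 to 11.90). The LXR-alpha gene Nr1h3 was at -0.08. Mlxipl and Nr1h3, and Fads1, Fads2 and Pck1 below, were chosen after their values were seen.

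Of 17 measured genes that supply carbon and NADPH, 12 were above 0, with a median of 0.04. None was called, and 4 were higher at an unadjusted p under 0.05. Acss2, which makes acetyl-CoA from acetate, was at 11.65, 11.50, 11.61 and 10.92 in NS-DADm replicates 1 to 4, against 10.72 to 11.09 in WT. It thus resembled Acacb, with replicates 1, 2 and 3 above the WT range and replicate 4 within it. Its log2 fold change was 0.48 (adjusted p = 0.306), or 0.65 without NS-DADm replicate 4 (adjusted p = 0.0142). Pgd, of the NADPH-making pentose phosphate pathway, was at 0.25 (adjusted p = 0.374).

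Of 20 measured genes of elongation and desaturation 11 were above 0, with a median of 0.02. None was called, and 2 were higher at an unadjusted p under 0.05. The largest values were those of the elongase gene Elovl5 (0.29, adjusted p = 0.472, and 0.19 without WT replicate 1) and of Hsd17b12 (0.23, adjusted p = 0.399), which reduces the elongation intermediate. The other desaturase genes Fads1 and Fads2 were at 0.03 and 0.07. Of 15 regulators of the carboxylases and the synthase, among them the subunits of AMP-activated protein kinase, 5 were above 0. None was called, and 1 was higher and 1 lower at an unadjusted p under 0.05. Prkab1, a subunit of that kinase, was at 0.23 (adjusted p = 0.488), and the clock-controlled deubiquitinase gene Usp2, whose product stabilises fatty acid synthase, at -0.49 (adjusted p = 0.154).

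Genes that follow fasting and feeding were set beside these values, since lipogenic transcripts respond to both. Of 12 measured, 4 were above 0 and 8 below. None was called, and 4 were lower at an unadjusted p under 0.05. Ppp1r3c was at 7.68, 8.04, 8.72 and 8.82 in NS-DADm replicates 1 to 4, against 9.25 to 9.66 in WT, a log2 fold change of -1.16 (adjusted p = 0.0741). It was called without NS-DADm replicate 4 (adjusted p = 0.0191) and with array weights (0.0377). It was lowest in the arrays in which the lipogenic genes were highest. Igfbp1, a gene that insulin represses, was at 0.27 (adjusted p = 0.81) and highest, at 12.00, in NS-DADm replicate 1, without which its value was 0.04. It was 0.46 without NS-DADm replicate 3 and 0.18 with array weights. The gluconeogenic gene Pck1 was at -0.23 (adjusted p = 0.278). Food intake before sampling is not given in the sources used here, and its part in the spread was not tested.

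Sterol synthesis genes, which SREBP-2 drives, were compared array by array. The median of 10 measured genes relative to the WT mean was 0.60, 0.54, 0.28 and -0.23 in NS-DADm replicates 1 to 4, against 0.66, 0.66, 0.07 and 0.05 for the lipogenic genes. Between the groups all 10 sterol genes were above 0, with a median log2 fold change of 0.3. None of the 10 was called, and 3 were higher at an unadjusted p under 0.05. Both lists were high in replicates 1 and 2, while replicate 3 was above WT in Hmgcs1 (12.10 against 11.28 to 11.35) but not in Fasn. Not every gene of the lists shared this contrast. In replicate 3 the sterol gene Mvk did not exceed the WT arrays (9.20 against up to 9.20). The lipogenic genes Acly (10.81 against up to 10.79) and Acacb (10.20 against up to 9.63) did. Acacb, at 10.20 in replicate 3 and 9.52 in replicate 4, had the order of the sterol genes Hmgcs1 and Idi1 in that replicate 3 stood with replicates 1 and 2. Hmgcs1 was at 0.66 (adjusted p = 0.263, and 0.00402 without NS-DADm replicate 4) and Idi1 at 0.48 (adjusted p = 0.467, and 0.00547 without it).

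**Figure D4:**
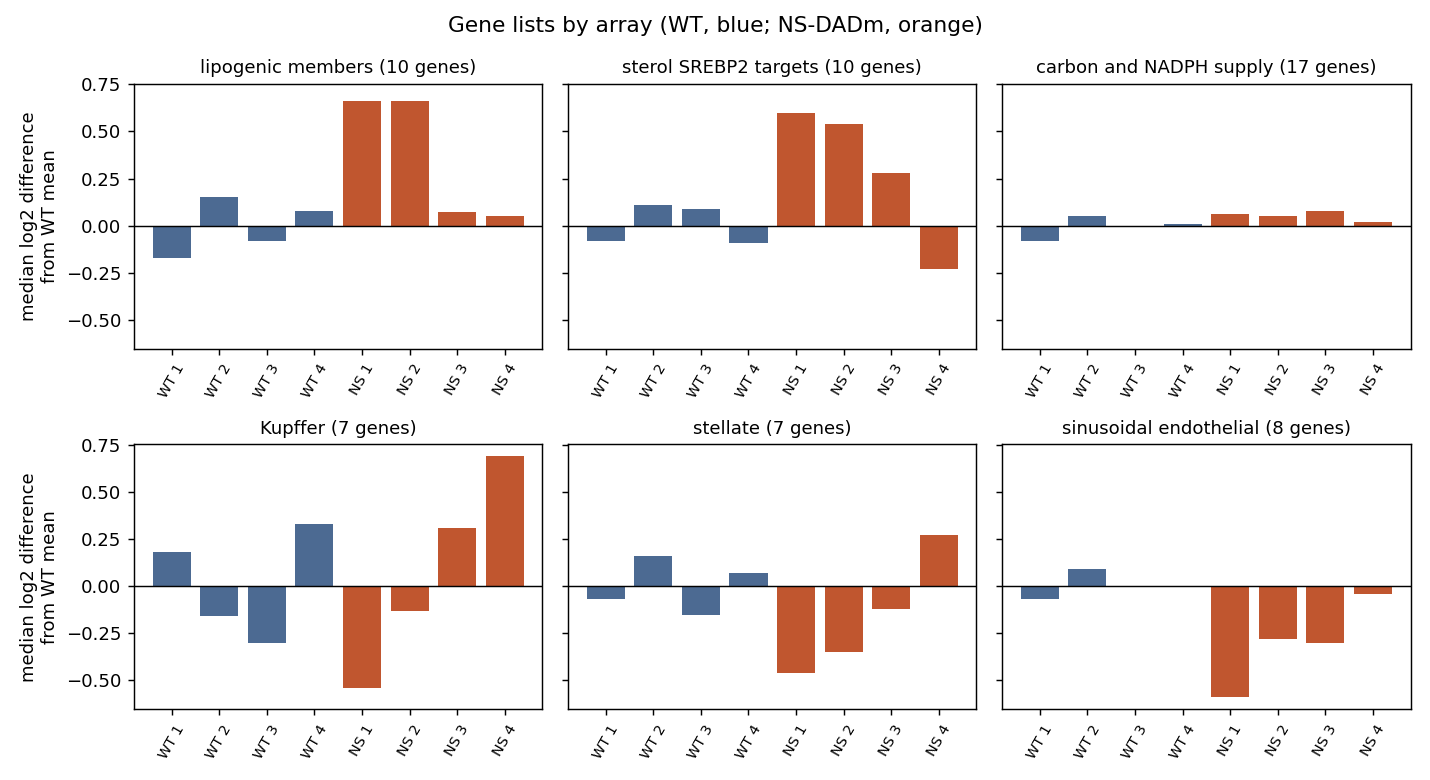
Median over the genes of a list of the log2 difference from the WT mean (vertical axes) in each array, WT in blue and NS-DADm (labelled NS) in orange. The lipogenic genes reach 0.66 in NS-DADm replicates 1 and 2 and sit at 0.07 and 0.05 in replicates 3 and 4, the Kupffer cell markers run the other way within NS-DADm, from -0.54 in replicate 1 to 0.69 in replicate 4, and the sinusoidal endothelial markers are below 0 in all NS-DADm arrays.

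Markers of other liver cells also differed between the NS-DADm arrays. In a whole-liver sample, fewer cells of a type and less RNA per cell cannot be told apart. The summed linear intensity of 7 Kupffer cell markers was 3055 to 6808 in NS-DADm and 3324 to 5466 in WT, lowest in NS-DADm replicate 1 and highest in replicate 4. Of the 7, 6 were above 0 and the median was 0.09. The sum of 7 stellate cell markers was 5912 to 10847 in NS-DADm and 8256 to 9961 in WT, with all 7 below 0 in mean (median -0.15), and again lowest in NS-DADm replicate 1 and highest in replicate 4. The sum of 8 sinusoidal endothelial markers was 5028 to 7471 in NS-DADm and 6901 to 8018 in WT, with all 8 below 0 (median -0.28). In WT replicates 1 to 4 the median of the Kupffer markers relative to the WT mean was 0.18, -0.16, -0.3 and 0.33. That of the lipogenic genes was -0.17, 0.15, -0.08 and 0.08. The 2 lists thus ran opposite ways in WT replicates 1 and 2 but not in 3 and 4. The part of cell content in the lipogenic values was not tested.

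Fat tissue also makes most of the lipogenic transcripts. The sum of 6 measured adipocyte markers was 763 to 992 in NS-DADm and 749 to 846 in WT. It was highest in NS-DADm replicate 4, in which Fabp4 was at 9.14, against 8.25, 8.25 and 8.42 in NS-DADm replicates 1 to 3. The median of the 6 markers relative to the WT mean was instead lowest of the NS-DADm arrays there. It was 0.01, 0.01, -0.03 and -0.07 in NS-DADm replicates 1 to 4. For the lipogenic genes this median was 0.66, 0.66, 0.07 and 0.05 in the same arrays. The part of fat tissue in the lipogenic values was not tested. Adipoq was at 5.32 to 5.71 and Lep at 5.86 to 6.30 in all 8 arrays, below every array median. The sum of 6 hepatocyte markers was 81766 to 85112 in NS-DADm and 84705 to 85312 in WT (5 of 6 above 0), of 4 cholangiocyte markers 654 to 727 and 657 to 722 (3 of 4 above 0), and of 6 neutrophil markers 535 to 592 and 479 to 552 (all 6 above 0). No marker of these lists was called by limma. At an unadjusted p under 0.05, 6 endothelial, 2 stellate and 1 hepatocyte marker (Tat) were lower and 2 neutrophil markers higher. Of all genes, 3.72% were higher at that level and 9.33% passed in either direction.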

How the data were processed

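The values used were deposited by the authors as log2 intensities of 28270 probe sets in 8 arrays, a scale read from the values (3.43 to 14.37). RMA and Partek are named in the submitters' processing notes, with settings not given in the sources used here. RMA subtracts background, makes arrays comparable and summarises probes, and compresses differences at low intensity. Of the probe sets, 21780 named 1 gene, 1617 several and 4873 none, and those naming 1 gene were used. The probe set with the highest mean stood for a gene. No filter was applied. Groups came from the titles, and no batch or scan date was given. NS-DADm was compared with WT by limma 3.58.1 (lmFit, eBayes) in R 4.3.3, two-sided. The 4 arrays per group limit the precision (median SE 0.0702). On simulated data of 19934 genes for this comparison, 81.2% of changes of 0.5 and 98% of changes of 1 on the log2 scale were recovered. The changed genes were drawn at random from all genes. The within-group SD of 9 of the 10 lipogenic genes was above the 95th percentile of all genes, so these shares do not apply to them. Paralog differences were tested by exact permutation in scipy 1.17.1. Alternatives were other uses of the probe sets, a filter, quantile normalization, median subtraction, weights per array, trended with robust variances, a block for the replicate number, and each array left out. Genes named beside the 10 were, of each pathway list, those called or otherwise the largest 2 in absolute log2 fold change, and those most like the lipogenic mean. The 10 genes, the lists and the tests were chosen with earlier results of these data known. List genes without a probe set of their own were not analysed here.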

Additional observations from a re-analysis of the deposited data

Results flagged for a closer look

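Among 48 sets of 4 arrays examined, those of the 10 lipogenic genes, the named pathway genes and the paralog differences in each group, 1 held an array far from the others. Insig2 was at 10.75 in WT replicate 1, against 11.18 to 11.23 in the other WT arrays, a gap of 0.892 of the whole range, beyond Dixon's 95% limit for 4 samples. Without that array the log2 fold change of Insig2 was 0.17, against 0.28 with it. Chance alone gives about 1 in 20 such sets.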

How the results depend on the processing

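Over 16 alternatives, the 10 lipogenic genes kept their direction and stayed short of the threshold in 155 of 160 values. The exceptions were Acacb without NS-DADm replicate 4 (0.89, adjusted p = 0.00913), Srebf1 at 0.01 without NS-DADm replicate 3 and without WT replicate 2 (-0.18 to 0.01 over the arrays left out), and Me1 at -0.04 without NS-DADm replicate 1 and -0.11 without WT replicate 1 (-0.11 to 0.10). The count of lipogenic genes called was 0 to 1 when each array was left out. The count over all genes, 54, was 109 with array weights, 105 with the replicate number as a block, and 13 to 126 when each array was left out. The count was 0 to 1 for carbon and NADPH supply and for fasting and feeding genes, and 0 to 3 for sterol genes; the cause was not tested. Mid1ip1 minus Thrsp was -0.08 with the mean of probe sets (0.16 to 0.34 leaving out arrays). Same-numbered arrays had deviations correlated at -0.1 to 0.25, which does not settle whether the numbers pair the samples. With that block no lipogenic gene was called (Mid1ip1 adjusted p = 0.161), Ppp1r3c was (-1.16, adjusted p = 0.0421), and the difference between Acacb and Acaca, 0.36, had an exact sign-flip p of 0.125, the smallest that 4 pairs allow.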
